A study of Mus musculus with 6 samples.

Results

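Kit, the PDGF receptors and their ligands are 8 genes taken by symbol from the 54446 gene identifiers of the files: the receptors Kit, Pdgfra and Pdgfrb, the Kit ligand Kitl, and the PDGF ligands Pdgfa, Pdgfb, Pdgfc and Pdgfd. They were chosen by their UMI counts, their shares of cells with a UMI and the finding of receptor and ligand in 1 cell in these same libraries, which were already known, so all 3 measures are a description and carry no test. Of the 8 genes, 7 had a UMI in a called cell and 6 passed the filter on low counts in the comparison of the groups. Gene expression was measured with droplet-based 5' single-cell libraries of mouse glioma cells. GL261, an established mouse glioma line grown in a differentiation medium containing FCS, gave 2 libraries. GL261-GSCs, cells derived from that line, labelled glioblastoma stem cells and grown in a defined GSC medium, gave 4 libraries. All 6 libraries come from 1 line, the group and the medium cannot be told apart, and no genetic change or drug treatment is named for either group.

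Kit and the PDGF receptors are related receptor tyrosine kinases that dimerise when a ligand binds and then recruit adaptors, PI3-kinase and phospholipase C-gamma to their phosphorylated tails. Kitl, also called stem cell factor, binds Kit, while the PDGF ligands act as dimers, PDGF-A mainly through Pdgfra and PDGF-B through both PDGF receptors. In the brain Pdgfra marks oligodendrocyte precursors and is a driver in many gliomas, Pdgfrb marks pericytes and other mural cells, and Kit is best known from mast cells, melanocytes and blood-forming cells.

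Kit and Pdgfra are neighbours on chromosome 5. In the GENCODE M21 annotation (GRCm38) Pdgfra spans chr5:75152292-75198215 and Kit spans chr5:75574916-75656722, both on the forward strand, with 377 kb between them. Kitl lies at chr10:100015630-100100416, Pdgfa at chr5:138976014-138997370, Pdgfb at chr15:79995874-80014977, Pdgfc at chr3:81036416-81214040 and Pdgfd at chr9:6168584-6378850. The sequences just upstream of the neighbouring receptor genes are shown because both genes were higher in GL261-GSCs. They come from RefSeq (GRCm38.p6), in which 6 of the 8 genes had a promoter entry, and are written 5′ to 3′ on the forward strand. The Kit stretch, chr5:75574737-75574915, holds 179 bases up to the annotated start, and its capitals mark a GC box 21 bases before that start. The Pdgfra stretch, chr5:75152001-75152250, holds 250 bases and none of the motifs searched.
Kit: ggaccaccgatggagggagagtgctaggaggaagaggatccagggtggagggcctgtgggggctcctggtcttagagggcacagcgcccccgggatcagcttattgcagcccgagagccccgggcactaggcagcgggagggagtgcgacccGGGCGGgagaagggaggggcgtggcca
Pdgfra: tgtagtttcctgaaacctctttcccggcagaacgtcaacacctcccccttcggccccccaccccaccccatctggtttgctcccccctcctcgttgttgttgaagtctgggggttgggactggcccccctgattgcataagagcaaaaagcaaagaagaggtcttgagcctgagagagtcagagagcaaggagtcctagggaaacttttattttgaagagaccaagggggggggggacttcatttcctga

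The motifs searched on both strands of the 300-base promoter windows were the E-boxes CAGCTG and CATATG, the GC box GGGCGG, the SOX motif ACAATG and the TATA box TATAAA. Among 32851 promoter windows of that length, 16.3% held CAGCTG, 3.91% held CATATG, 35.7% held GGGCGG, 12.6% held ACAATG and 13.6% held TATAAA. The Kitl window held 3 GC boxes and 1 TATA box. Its GC content was 68.7% and that of the Kit window 69.0%, against 51.0% in the Pdgfra window. The median over all promoter windows was 52.7%. Of the Pdgfa windows, 1 had 67.0% GC, 1 GC box and 1 SOX motif, and the other had 73.3% GC and 2 GC boxes. The Pdgfd window held 1 TATA box and the Pdgfc window none of the motifs. These are matches of letters and not sites of binding.

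Cell calling left 4808 and 5002 cells in the GL261 replicates, and 4264, 5870, 7275 and 4512 cells in GL261-GSCs replicates 1 to 4. They held 33320530 to 79472306 UMIs per library, with the lowest sum and the lowest median per cell, 6670 UMIs, in GL261-GSCs replicate 4. Pairs of libraries shared 32 to 59 called barcodes, where chance gives 26.1 to 57.9. Levels are given as CPM, UMI counts scaled to a common library size with TMM factors. Each UMI of a 5' library stands for 1 end of 1 molecule, so CPM was not divided by gene length, and levels of different genes compare molecules captured at their 5' ends. The labels do not say that the libraries came from separate cultures, so that every spread and p-value below measures only the variation between these libraries, which may be technical.

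Among the receptors, Kit was found only in GL261-GSCs. It had 0 UMIs in both GL261 libraries. The 95% exact intervals allow a share of cells with a Kit UMI of up to 0.0767% and 0.0737%. In GL261-GSCs replicates 1 to 4 it had 7680, 6835, 4704 and 1691 UMIs, or 116, 94.3, 58.8 and 46.5 CPM. The mean was 79.0 ± 32.2 CPM (SD, n = 4). The detection limit was taken as 3 UMIs over the 2 GL261 libraries. Scaled to the summed library sizes, Kit UMIs were at least 3498-fold higher in GL261-GSCs. After each cell was thinned to 2000 UMIs, so that depth was equal, Kit was found in 19.5%, 17.6%, 12.5% and 11.6% of cells of replicates 1 to 4. Unthinned, the shares were 66.5%, 56.7%, 39.3% and 25.5%. Free RNA, as measured in barcodes below 1000 UMIs, would give Kit UMIs to 0.571%, 0.549%, 0.469% and 0.929% of the thinned cells. Unthinned, that free-RNA share was at most 3.38%, in replicate 1. The cell richest in Kit held 39 UMIs in replicate 1 and 8 in replicate 4.

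Kit is also a marker of mast cells and melanocytes, whose other markers were low. Of 9 mast cell markers, 4 had no UMI in any library: Cpa3, Mcpt4, Tpsb2 and Fcer1a. The mast cell markers together reached 0.779 to 1.23 CPM in GL261 and 2.30 to 4.38 CPM in GL261-GSCs, most of it from the transcription factor Gata2. The 6 melanocyte markers summed to 6.05 to 7.44 CPM in GL261 and 8.10 to 14.1 CPM in GL261-GSCs, with Mlana at 0 throughout. Gata2 rose, as 1 of 2 mast cell markers tested. Of 3 melanocyte markers tested, Mitf and Pmel rose and Dct fell, from 3.47 and 2.09 CPM to at most 0.511 CPM. Over all 18433 genes tested between the groups, 15.8% rose and 14.1% fell by the edgeR test, and so few markers tell little against that share. Their part in the Kit levels was not tested.

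Pdgfra, the receptor for PDGF-A, was present in both groups and higher in every GL261-GSCs library. GL261 replicates 1 and 2 had 538 and 292 Pdgfra UMIs, or 7.97 and 4.84 CPM. GL261-GSCs replicates 1 to 4 had 3736, 6408, 13456 and 6620 UMIs, or 56.6, 88.4, 168 and 182 CPM. The groups did not overlap, and the means were 6.40 ± 2.21 CPM (SD, n = 2) and 124 ± 60.9 CPM (SD, n = 4), a ratio of 19.3 (log2 4.27). At 2000 UMIs per cell, 1.56% and 0.880% of GL261 cells held a Pdgfra UMI. In GL261-GSCs the shares were 10.5%, 16.7%, 29.1% and 32.2%, and free RNA would give 0.309%, 0.524%, 1.48% and 4.17%. Unthinned, 9.42% and 5.14% of GL261 cells held Pdgfra, against 44.9%, 52.7%, 69.0% and 60.9% of GL261-GSCs cells. The unthinned free-RNA share was at most 0.214% in GL261. It was 1.84%, 2.47%, 5.90% and 10.4% in GL261-GSCs replicates 1 to 4. No GL261 cell held more than 4 Pdgfra UMIs, while single GL261-GSCs cells held up to 17, 17, 25 and 20.

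Most markers of oligodendrocyte precursors, the cells that Pdgfra marks in the brain, were also higher in GL261-GSCs. Their 10 markers without Pdgfra summed to 509 to 567 CPM in GL261 and 1569 to 2793 CPM in GL261-GSCs, and 7 of the 9 that were tested rose by the edgeR test, where 15.8% of all genes did. Cspg4 and Sox10, which made up nearly all of the GL261 sum, did not pass: Cspg4 had 164 and 200.3 CPM in GL261 against 67.2, 83.3, 148 and 209 CPM, and Sox10 had 331 and 358 CPM against 304 to 382 CPM. Olig2, a transcription factor of that lineage, had 0.918 and 0.0166 CPM in the GL261 replicates and 401, 413, 787 and 628 CPM in GL261-GSCs. Whether this difference in lineage markers has a part in the Pdgfra levels was not tested.

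Pdgfrb, which lies at chr18:61045150-61085061, went the other way. It had 333 and 305 UMIs in GL261, or 4.93 and 5.05 CPM, against 1, 10, 14 and 5 UMIs in GL261-GSCs, or 0.0152, 0.138, 0.175 and 0.137 CPM. The group means of 4.99 ± 0.0855 CPM (SD, n = 2) and 0.116 ± 0.0698 CPM (SD, n = 4) differed 42.9-fold (log2 -5.42). Pdgfrb UMIs were spread thinly, with 638 UMIs in 590 cells of GL261 and 30 UMIs in 29 cells of GL261-GSCs. The 8 other mural cell markers summed to 1.29 to 2.04 CPM in GL261 and 9.26 to 18.2 CPM in GL261-GSCs, where most of it came from Des, and 2 of the 4 tested rose and none fell, where 15.8% and 14.1% of all genes did. Anpep was lower in GL261-GSCs without passing, at 0.504 and 0.381 CPM in GL261 against 0.113 to 0.364 CPM. The 6 fibroblast markers went both ways, with sums of 254 to 288 CPM in GL261 and 38.3 to 229 CPM in GL261-GSCs. The collagen gene Col1a1 fell, from 247 and 282 CPM to between 10.8 and 26.3 CPM, while Col3a1 rose, from 6.01 and 5.0 CPM to 22.3, 180.0, 201 and 174 CPM, and the other 2 that were tested did not pass. The part of these cell types in the Pdgfrb levels was not tested.

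Both abundant ligands were lower in GL261-GSCs. Kitl, the ligand of Kit, had 14451 and 12396 UMIs in GL261, or 214 and 205 CPM. In GL261-GSCs it had 1980, 3820, 9268 and 4375 UMIs, or 30.0, 52.7, 116 and 120.2 CPM. All 4 values lay below both GL261 values, with means of 79.7 ± 45.3 CPM (SD, n = 4) and 209.7 ± 6.13 CPM (SD, n = 2), a 2.63-fold difference (log2 -1.40). At 2000 UMIs per cell, Kitl was found in 31.6% and 30.4% of GL261 cells and in 6.0%, 9.80%, 20.3% and 21.0% of GL261-GSCs cells. Free RNA would give Kitl to 1.27% to 1.5% of thinned GL261 cells and to 0.332% to 2.84% of thinned GL261-GSCs cells. Unthinned, Kitl was found in 82.8% and 80.4% of GL261 cells and in 30.3%, 35.4%, 56.5% and 44.5% of GL261-GSCs cells. The unthinned free-RNA share of Kitl was at most 7.96% in GL261 and 7.13% in GL261-GSCs. GL261 cells thus held Kitl without Kit, and each GL261-GSCs library held both.

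Pdgfa, which encodes the PDGF-A chain, had 15880 and 17220 UMIs in GL261, or 235 and 285 CPM. The GL261-GSCs libraries had 6353, 6735, 6008 and 2933 UMIs, or 96.3, 92.9, 75.1 and 80.6 CPM. The groups did not overlap, and the means of 260.3 ± 35.4 CPM (SD, n = 2) and 86.2 ± 10.0 CPM (SD, n = 4) differed 3.02-fold (log2 -1.59). At 2000 UMIs per cell, 33.3% and 37.5% of GL261 cells held a Pdgfa UMI, against 16.2%, 16.8%, 12.9% and 14.4% of GL261-GSCs cells. The free-RNA share of Pdgfa was at most 1.27% in any library at 2000 UMIs and at most 5.73% unthinned. Unthinned, 83.9% and 86.5% of GL261 cells and 64.8%, 58.0%, 43.3% and 38.1% of GL261-GSCs cells held it. Pdgfa was the most even of the 4 abundant genes across the GL261-GSCs libraries, with an SD of 10.0 CPM.

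The remaining ligands were at or near 0. Pdgfb, the PDGF-B chain, had 4 and 2 UMIs in the GL261 replicates and a single UMI in GL261-GSCs, in replicate 4. Pdgfc had none in GL261 and none in GL261-GSCs replicate 1, but 32, 8 and 24 UMIs in GL261-GSCs replicates 2 to 4, or 0.442, 0.10 and 0.659 CPM. These 64 UMIs lay in 58 cells. With the same limit of 3 UMIs for GL261 and the same scaling, Pdgfc was at least 10.7-fold higher in GL261-GSCs. The libraries of the groups nonetheless overlapped. Pdgfd had no UMI in a called cell of any library. Counts this low show only that Pdgfb, Pdgfc and Pdgfd were at or under the limit of detection in most cells, not that they were absent.

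**Figure D1:**
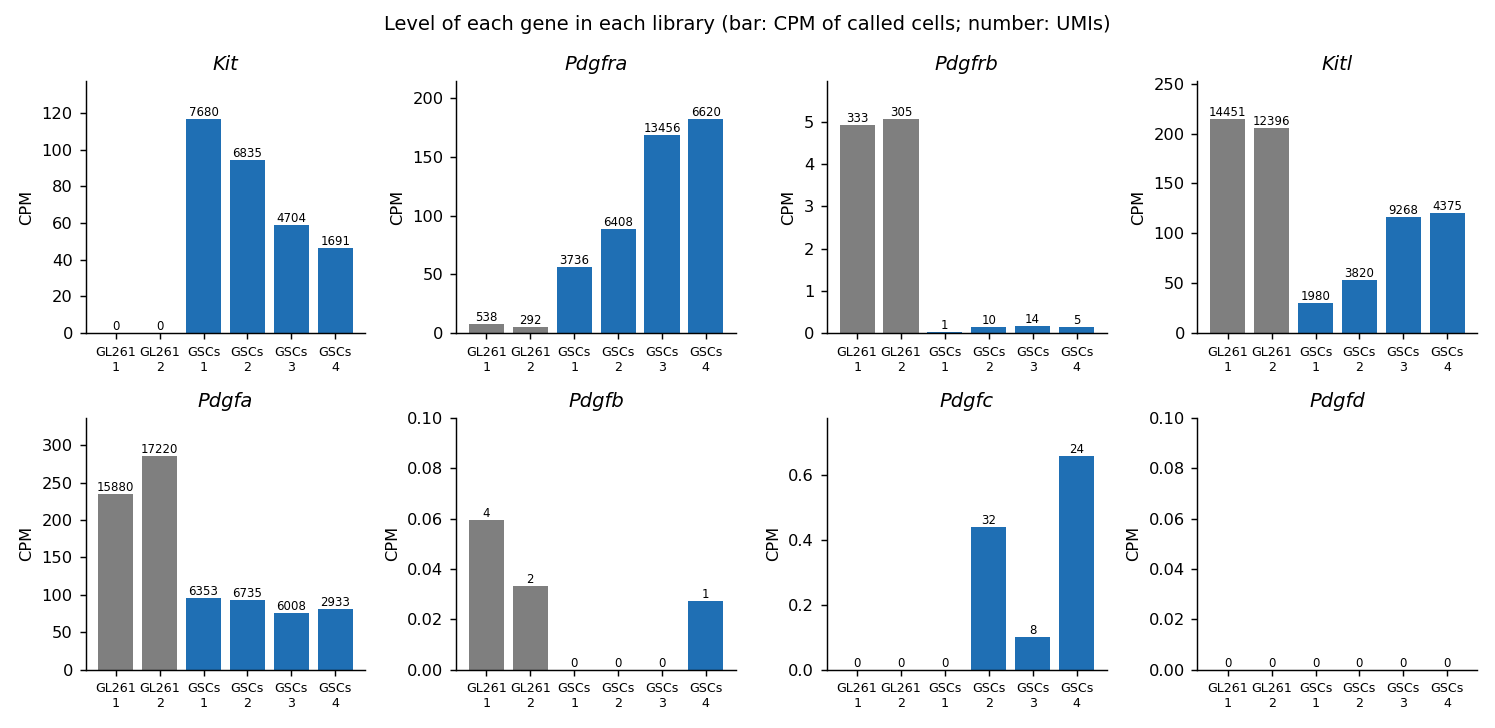
Levels of the 8 genes in each library, as CPM of the called cells, with the UMIs written above the bars; GL261 in grey, GL261-GSCs in blue, each panel with its own axis from 0. Kit is at 0 in both GL261 libraries, Pdgfra is higher and Pdgfrb, Kitl and Pdgfa are lower in all 4 GL261-GSCs libraries, and Pdgfd is at 0 in all 6.

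In GL261 the order of levels was Pdgfa, Kitl, Pdgfra, Pdgfrb and Pdgfb. Pdgfa and Kitl did not overlap, but Pdgfra, at 4.84 to 7.97 CPM, overlapped Pdgfrb, at 4.93 to 5.05 CPM. In GL261-GSCs the means ran from Pdgfra through Pdgfa and Kitl to Kit, with the ranges of all 4 overlapping, and Pdgfc and Pdgfrb far below. Of the 6 members that passed the filter on low counts, Kit and Pdgfra were higher and Pdgfa, Kitl and Pdgfrb lower in GL261-GSCs without overlap of the libraries. Over all 18433 genes tested, 56.7% had no overlap, 28.7% higher and 28.1% lower, and nothing is read from the members' count since the same values chose them.

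**Figure D2:**
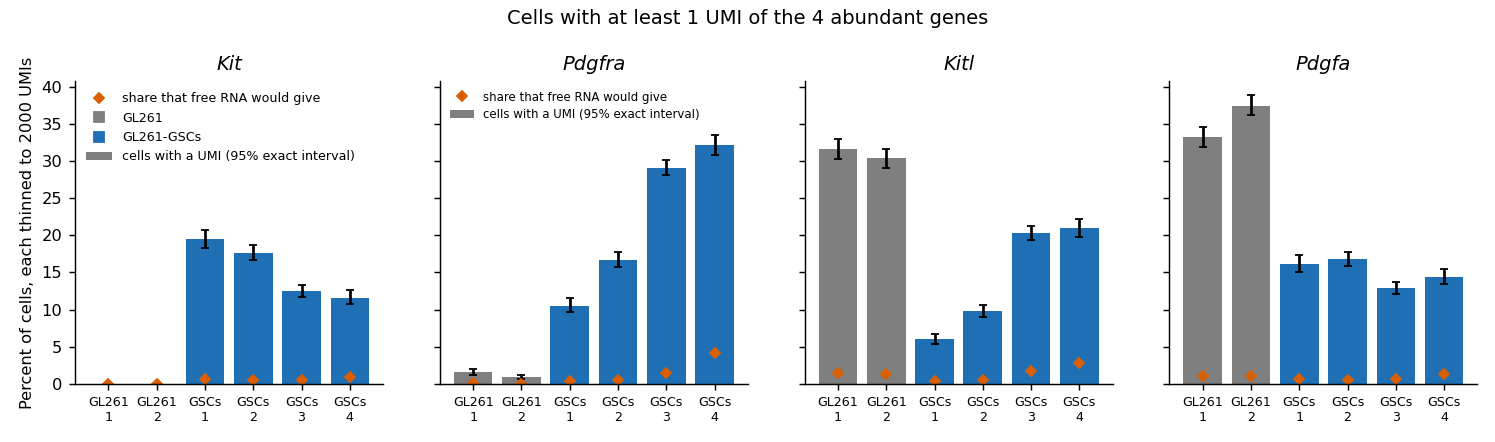
Percent of cells with at least 1 UMI of Kit, Pdgfra, Kitl or Pdgfa after thinning each cell to 2000 UMIs, per library, with 95% exact binomial intervals (counting error only); diamonds give the share that free RNA would produce. The Kit bars lie at 0 in GL261 and between 11.6% and 19.5% in GL261-GSCs, and the largest free-RNA share for Pdgfra is 4.17% in GL261-GSCs replicate 4.

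The 4 GL261-GSCs libraries differed in their balance of receptors and ligand. Pdgfra UMIs per Kit UMI were 0.486, 0.938, 2.86 and 3.91 in replicates 1 to 4, and Kitl UMIs per Kit UMI were 0.258, 0.559, 1.97 and 2.59. Replicates 1 and 2 thus had more Kit and less Pdgfra and Kitl than replicates 3 and 4. Pdgfa UMIs per Pdgfra UMI were 1.70, 1.05, 0.446 and 0.443, against 29.5 and 59.0 in GL261. Such ratios are taken within a library and do not depend on how its size was scaled. Median UMIs per cell also differed, at 15374.5 and 11889.5 in replicates 1 and 2 and 10638 and 6670 in replicates 3 and 4. Median mitochondrial shares were 1.04%, 1.11%, 1.26% and 1.35%, and median Malat1 shares 0.229%, 0.277%, 0.371% and 0.768%. Called cells held 41.2% of the UMIs in replicate 4, against 56.7% to 65.7% in replicates 1 to 3. The labels do not say how these replicates relate. The part of depth, of the quality of the libraries or of culture in the shift was not tested.

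Within a GL261-GSCs library Kit and Pdgfra were uneven among cells. After thinning to 2000 UMIs, the variance of Kit UMIs per cell divided by their mean, which is 1 for random sampling, was 1.53, 1.30, 1.25 and 1.22 in GL261-GSCs replicates 1 to 4. For Pdgfra it was 1.31, 1.35, 1.46 and 1.56. Among the ligands Pdgfa lay at 1.06 to 1.13, and Kitl had 1.12, 1.26, 1.23 and 1.54. In GL261 replicates 1 and 2 the ratio was 1.06 and 1.08 for Pdgfra and 1.09 and 0.992 for Pdgfrb. Kitl had 1.20 and 1.19 in these GL261 libraries, and Pdgfa 1.08 and 1.08, so unevenness was not limited to GL261-GSCs. This ratio rises with the mean at a given spread between cells, so it does not rank the libraries.

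Kit and Pdgfra were found in the same GL261-GSCs cells somewhat more often than their single shares would give. At 2000 UMIs, Pdgfra was found in 11.8%, 22.2%, 37.8% and 41.8% of cells with a Kit UMI in replicates 1 to 4. In cells without one it was found in 10.2%, 15.6%, 27.9% and 30.9%. All 4 libraries had the higher share in cells with Kit. The cells with both numbered 98, 230, 343 and 219, and the odds ratios were 1.17, 1.55, 1.57 and 1.60, with a mean of 1.47 ± 0.202 (SD, n = 4). The excess was smaller at 5000 UMIs, a setting that keeps only the 2816 to 6113 cells per library with that many. The mean odds ratio was 1.27 there and 1.36 in all cells unthinned. The mean log2 odds ratio went from 0.55 at 2000 UMIs to 0.34 at 5000 UMIs. Without replicate 1 it was 0.65 at 2000 UMIs. Cells of 1 library are not replicates, so that these values carry no test, and doublets were not removed.

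Receptor and ligand showed less of such a pattern. Kitl was found in 6.61%, 10.7%, 19.4% and 24.4% of GL261-GSCs cells with a Kit UMI and in 5.86%, 9.60%, 20.4% and 20.6% of the other cells. The odds ratios were 1.14, 1.13, 0.939 and 1.25, with a mean of 1.11 ± 0.129 (SD, n = 4), so that the libraries lay on both sides of 1. Pdgfa was found with Pdgfra at odds ratios of 1.04, 0.796, 0.943 and 0.932 in GL261-GSCs, a mean of 0.929 ± 0.102 (SD, n = 4). In unthinned cells that mean was 1.13, on the other side of 1. In GL261, 36.0% and 36.4% of the few cells with a Pdgfra UMI also held Pdgfa, with 27 and 16 such cells, against 33.2% and 37.5% of the cells without one. Pdgfra and Pdgfc shared 3 cells at 2000 UMIs where 4.99 were expected, 13 at 5000 UMIs where 6.34 were expected, and 41 unthinned cells where 33.7 were expected, so that the side of the expectation changed with the depth. No thinned cell held Pdgfrb with Pdgfb or Pdgfd, or Pdgfra with Pdgfb. At most 0.0156 such cells were expected for any of these pairs in a group, so this lack tells nothing.

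**Figure D3:**
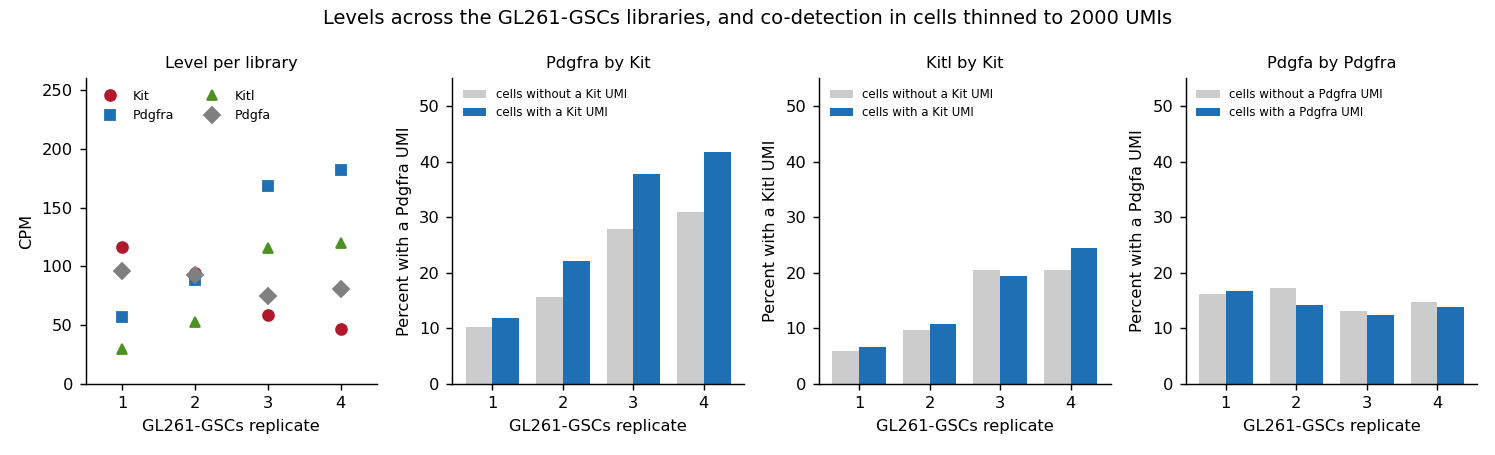
Left, CPM of 4 genes in the GL261-GSCs libraries. Right, percent of GL261-GSCs cells (thinned to 2000 UMIs) with a UMI of the second gene, for cells with (blue) and without (grey) a UMI of the first; Pdgfra is more frequent in cells with Kit in all 4 libraries, from 11.8% against 10.2% in replicate 1 to 41.8% against 30.9% in replicate 4.

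The next comparison asked whether the genes varied with the cell cycle inside GL261-GSCs, a measure the choice of genes did not use. The classes here and below were, however, chosen with earlier results of these data known. Cells were ranked by the UMIs of 51 genes of G2/M phase after thinning, and cells at or above the 80th percentile were compared with those at or below the median of their library. UMIs were summed per class and library and tested with edgeR, with the library as a block. Pdgfra rose in the high class. Its levels were 88.2, 127, 267 and 276 CPM in the high class and 41.2, 72.9, 130.1 and 146 CPM in the low class of replicates 1 to 4. It was higher in 4 of 4 libraries, with a fitted fold of 1.95 (log2 0.96, SE 0.0628, edgeR adjusted p = 0.00011). Of all 14088 genes tested, 37.5% passed the edgeR test, 17.5% higher and 20.1% lower in the high class, so a rise as such was not rare.

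Kit, Kitl and Pdgfa did not pass that test. Kit had a log2 difference of 0.00 (SE 0.0632, edgeR adjusted p = 0.997), Kitl of 0.03 (SE 0.0601, edgeR adjusted p = 0.711) and Pdgfa of -0.05 (SE 0.0776, edgeR adjusted p = 0.659). By library the log2 ratios of Pdgfa were 0.14, 0.09, -0.21 and -0.23, in both directions. The high class began at 22 to 26 list UMIs, with 49 to 133 cells per library exactly at that number and 65 to 133 cells 1 UMI below. The high class was also deeper, at 7850 to 17025 median UMIs against 6783 to 14772, and with counts thinned to equal depth Pdgfra still passed. Without the library block the Pdgfra difference was as large (log2 0.96) but missed the threshold (edgeR adjusted p = 0.390); the low class alone ranged from 41.2 to 146 CPM between libraries.

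The same classes were described in GL261 after these results were seen, with no test. Here CPM is scaled to the UMIs of each class without TMM factors, unlike in the GL261-GSCs classes. Pdgfra had 9.46 against 7.28 CPM and 6.34 against 4.40 CPM in the high and low classes of GL261 replicates 1 and 2, ratios of 1.30 and 1.44. Pdgfa was also higher in the G2/M-high class of GL261, by ratios of 1.31 and 1.40, while Kitl stood at 0.974 and 0.991 and Pdgfrb at 0.804 and 0.928. Whether these ratios differ from those of GL261-GSCs was not tested.

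The second comparison within GL261-GSCs used 18 genes of committed oligodendrocytes, among them the myelin gene Mbp, with the same cuts. The high class held 1444, 2130, 2514 and 959 cells of replicates 1 to 4, and the low class 2820, 3740, 4761 and 2713. No cell lay between the classes in replicates 1 to 3, but 840 did in replicate 4, so the classes differ between libraries. Kitl fell in the cells high in this list, from 32.1, 61.6, 134 and 139 CPM to 29.0, 42.5, 97.6 and 92.6 CPM in replicates 1 to 4. It was lower in 4 of 4 libraries (log2 -0.44, SE 0.0578, edgeR adjusted p = 0.000499). Pdgfra rose, from 53.9, 85.8, 168 and 185 CPM to 68.2, 104, 194 and 212 CPM, again in 4 of 4 libraries (log2 0.25, SE 0.0402, edgeR adjusted p = 0.00162). Without the library block the log2 differences were -0.49 and 0.23 and neither passed, nor did Kit or Pdgfa (edgeR adjusted p = 0.99997 for each of the 4). In the whole table of 15085 genes, 18.5% passed, 8.5% higher and 10% lower in the high class.

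Kit rose slightly in the same class (log2 0.14, SE 0.0419, edgeR adjusted p = 0.0365) and Pdgfa fell slightly (log2 -0.15, SE 0.0435, edgeR adjusted p = 0.0292), each in 4 of 4 libraries. Both calls were fragile. Kit missed the threshold without replicate 1, 2 or 3 (edgeR adjusted p = 0.140, 0.0589 and 0.210), with no filter on low counts (0.175) and with DESeq2 (0.0985). Pdgfa missed it without replicate 1 or 3 (0.0520 and 0.0856), with counts thinned to 2000 UMIs (0.135) and with the high class from the 90th percentile (0.145). The list was sparse: the high class began at 2 UMIs in replicates 1 to 3 and 3 in replicate 4, with 440 to 1251 cells per library at that number and 840 to 2222 cells 1 UMI below, so that the classes are ranges and not cell types. The high class was shallower in all 4 libraries, with 5647 to 14778.5 median UMIs against 7276 to 15807.

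**Figure D4:**
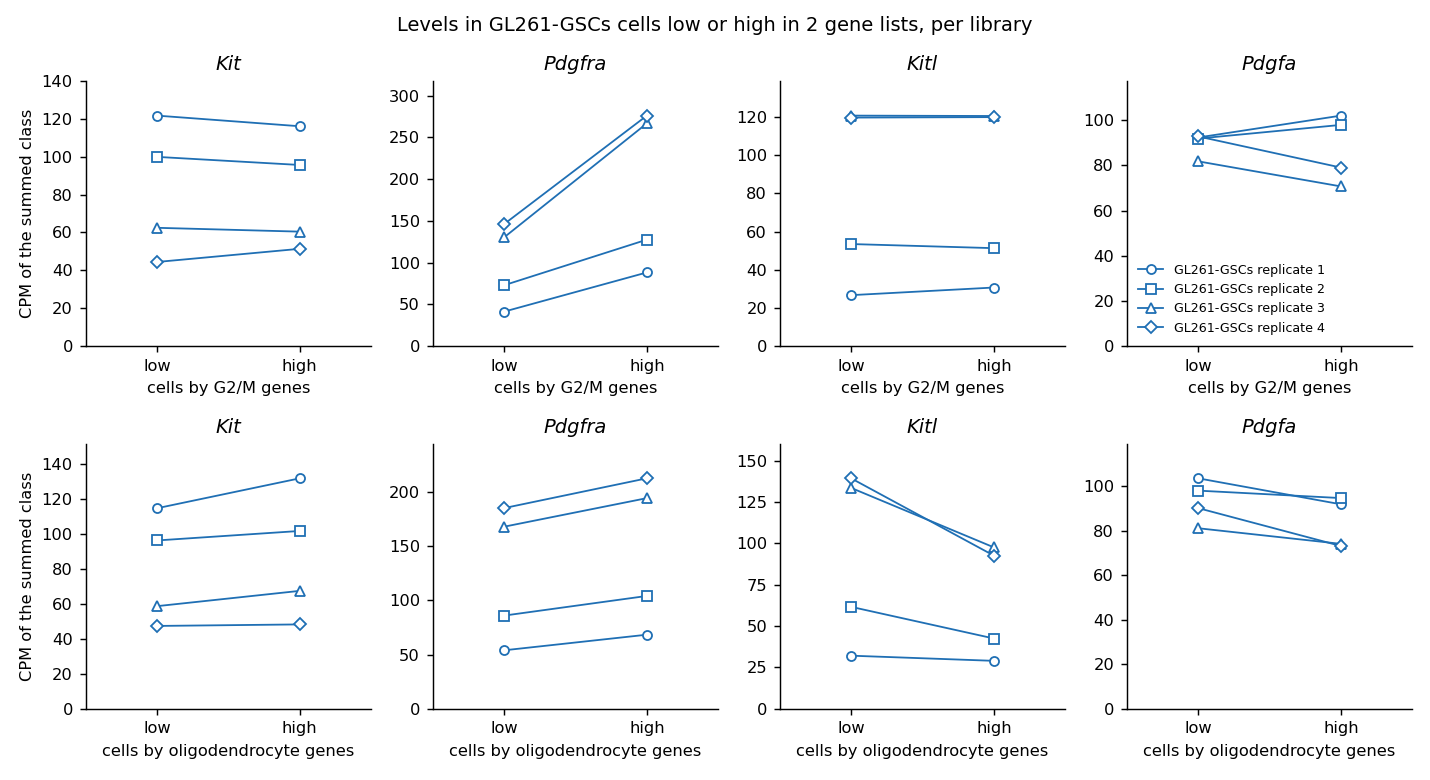
CPM of Kit, Pdgfra, Kitl and Pdgfa in GL261-GSCs cells low and high in G2/M genes (top) and in committed oligodendrocyte genes (bottom), 1 line per library, axes from 0. Pdgfra rises in all 4 libraries in both rows, by 1.95-fold with G2/M genes, and Kitl is lower in all 4 libraries among cells high in oligodendrocyte genes.

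Genes that act directly downstream of these receptors changed in both directions between the groups. Of 31 adaptors, kinases and transcription factors of proximal signalling, 30 were tested with edgeR over all genes, and 9 rose and 6 fell in GL261-GSCs, or 50%, where 29.9% of all genes passed (15.8% higher, 14.1% lower). The median log2 difference of the list was 0.30, against 0.04 for all genes tested. Vav3, a guanine nucleotide exchange factor, rose from 0.193 and 0.0828 CPM to between 18.2 and 27.8 CPM (log2 7.38, SE 0.413, edgeR adjusted p = 0.000101). The docking protein gene Gab1 rose (log2 2.08, edgeR adjusted p = 0.000477), as did the PI3-kinase regulatory subunits Pik3r3 (log2 1.79, edgeR adjusted p = 0.0049) and Pik3r2 (log2 0.83, edgeR adjusted p = 0.00635). Those that fell included the adaptor genes Grb2, Shc1, Nck2, Crk and Crkl and the kinase Fes. With only 2 GL261 libraries the count leaned on both: 3 genes passed without GL261 replicate 1, 2 without replicate 2, and 9 without GL261-GSCs replicate 3. Without either GL261 library none of those that fell passed. Pik3r2 missed the threshold without either GL261 library, and Pik3r3 without GL261 replicate 2.

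Negative regulators were split as well. Of 20 phosphatases, ubiquitin ligases and SOCS or DOK proteins, 17 were tested, 4 rose and 5 fell (52.9% against 29.9% of all genes), with a median log2 difference of -0.10. Socs3, a feedback inhibitor of cytokine and receptor signalling, fell from 23.2 and 22.0 CPM to between 3.11 and 4.45 CPM (log2 -2.61, SE 0.204, edgeR adjusted p = 0.000313). Socs6, whose product binds Kit, fell (log2 -1.35, edgeR adjusted p = 0.000538), and so did the docking inhibitor Dok1 (log2 -2.03, edgeR adjusted p = 0.00188). Lrig1, a membrane inhibitor of growth factor receptors, rose from 1.32 and 0.679 CPM to between 6.35 and 11.6 CPM (log2 3.24, edgeR adjusted p = 0.00187). The count was 5 without either GL261 library.

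Relatives of the receptors and their ligands had 12 of 16 genes tested, of which 3 rose and 6 fell (75% against 29.9% of all genes), and the median log2 difference was -1.56. Csf1r, which lies just downstream of Pdgfrb on chromosome 18 and encodes the receptor for CSF1, fell from 12.9 and 12.6 CPM to between 0.192 and 0.243 CPM (log2 -5.79, SE 0.211, edgeR adjusted p = 3.19e-05). Of the 8 microglia and macrophage markers, which include Csf1r, C1qa was at 0 and only Csf1r and Cd68 were tested. Cd68 lay the other way without passing, at 7.87 and 7.04 CPM in GL261 against 13.8, 8.91, 18.9 and 23.0 CPM in GL261-GSCs (edgeR adjusted p = 0.0662). The markers' sums, mostly these 2 genes, were 19.9 to 20.9 CPM in GL261 and 9.20 to 23.2 CPM in GL261-GSCs. The ligand genes of Csf1r, Csf1 and Il34, fell too. Nrp1, a co-receptor for VEGF ligands, fell from 113 CPM in both GL261 libraries to at most 0.227 CPM (log2 -9.21, SE 0.26, edgeR adjusted p = 1.84e-05), and Nrp2 fell less (log2 -2.51, edgeR adjusted p = 0.00037). Flt3, a receptor of the same class as Kit, rose to a mean of 2.96 ± 1.84 CPM (SD, n = 4) from 0.295 ± 0.0652 CPM (SD, n = 2), with edgeR adjusted p = 0.00953, and missed the threshold without either GL261 library. The count was then 3, those of Csf1r, Nrp1 and Nrp2.

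Genes that process or bind these ligands mostly fell where they passed. Of 19 proteases, inhibitors and matrix proteins, 16 were tested, 1 rose and 6 fell (43.8% against 29.9% of all genes), with a median log2 difference of -0.69. Sparc, a matrix protein that binds PDGF, fell from 1972 and 2059 CPM to between 246 and 436 CPM (log2 -2.48, SE 0.223, edgeR adjusted p = 0.000512). Plaur, the urokinase receptor, fell (log2 -2.79, edgeR adjusted p = 0.00012), as did the protease Adam10 (log2 -1.43, edgeR adjusted p = 0.00095). Serpine2, a protease inhibitor, was the gene that rose. The count was 4 without either GL261 library, all of them lower, so that the Serpine2 call was lost.

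Around the Kit and Pdgfra locus, 15 neighbours within 2.65 Mb were examined and 12 tested, of which 5 rose and 1 fell (50% against 29.9% of all genes), with a median log2 difference of 0.35. Gsx2, a homeobox gene next to Pdgfra at chr5:75075601-75077893, had no UMI in GL261 and 16.2, 4.03, 19.9 and 15.5 CPM in GL261-GSCs. With the limit of 3 UMIs for GL261 this was at least 588-fold higher (edgeR adjusted p = 0.0022). Lnx1, a ubiquitin ligase gene, rose from 0.148 and 0.215 CPM to 1.20, 1.53, 11.8 and 15.1 CPM (log2 5.33, edgeR adjusted p = 0.0312). Its GL261-GSCs values split as those of Pdgfra did, low in replicates 1 and 2. Clock and Scfd2 rose by smaller amounts (log2 0.48 and 0.61, edgeR adjusted p = 0.0278 and 0.028). Chic2, between Lnx1 and Gsx2, had 130 and 122 CPM in GL261 and 161 to 257 CPM in GL261-GSCs and did not pass (edgeR adjusted p = 0.0587). Kdr, the VEGF receptor gene on the far side of Kit, was too low to be tested. Without GL261 replicate 1 or 2 the count of neighbours that passed was 1, and without GL261-GSCs replicate 3 it was 2. Lnx1, Clock and Scfd2 missed the threshold in each of these cases, and Clock also with no filter on low counts (edgeR adjusted p = 0.0703).

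**Figure D5:**
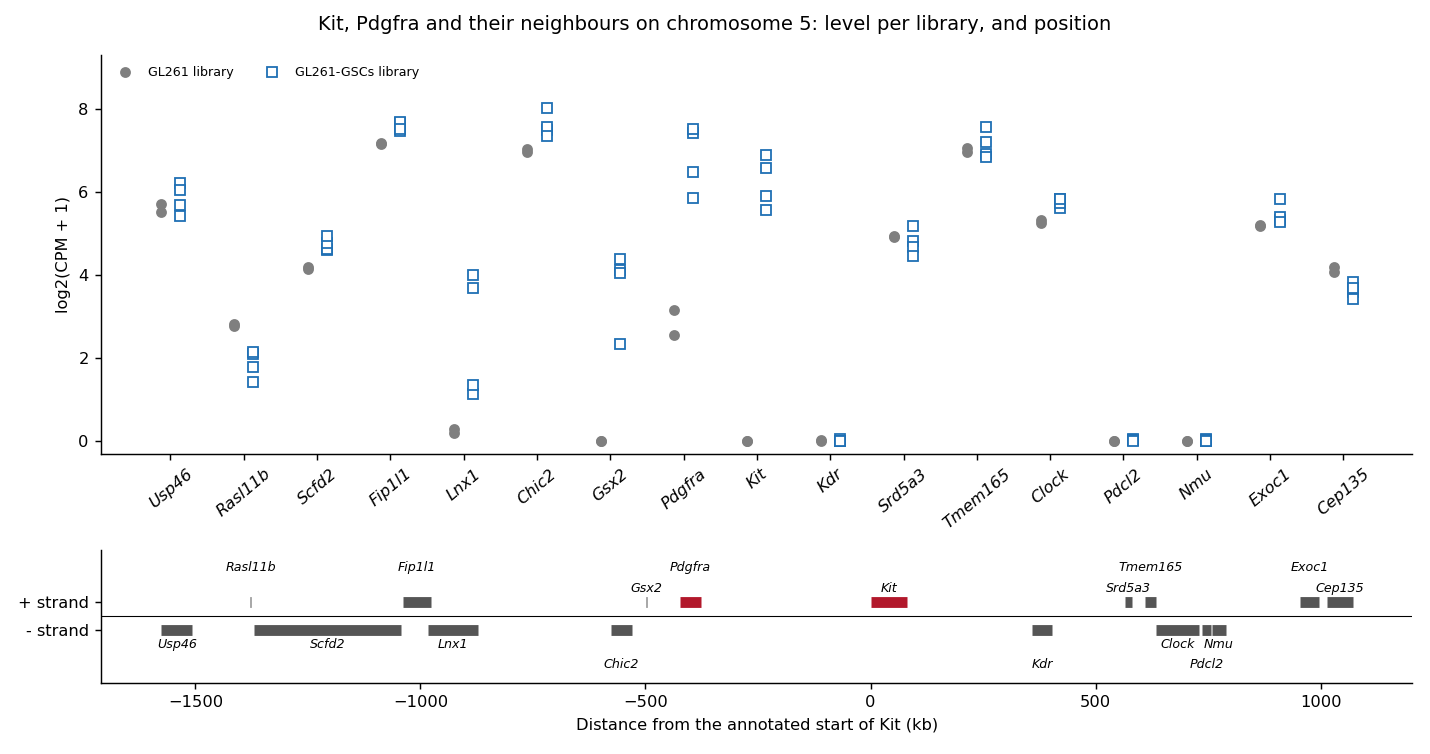
Top, log2(CPM + 1) of Kit, Pdgfra and their neighbours in chromosomal order, 1 point per library (grey GL261, open blue GL261-GSCs). Bottom, the genes' positions by strand as distance in kb from the annotated start of Kit; Pdgfra, Kit, Gsx2 and Lnx1 stand apart between the groups, while the fitted log2 differences of Fip1l1 and Clock are 0.41 and 0.48.

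By the root mean square difference of centred log2(CPM + 1) values over the 6 libraries, among 5319 genes with an average log2 CPM of at least 5, the genes nearest to Kit were Fam19a4 (0.22), Abi3bp (0.29), Tcim (0.30), Reln (0.40) and Slc1a3 (0.52). Those nearest to Pdgfra were Stmn4 (0.21), Chd7 (0.27), St3gal6 (0.31), Aldoc (0.31) and Arl4a (0.33). Fam19a4 had 0 and 0.0497 CPM in GL261 and 81.6, 76.3, 57.5 and 50.3 CPM in GL261-GSCs, in the order Kit showed. Stmn4 had 5.32 and 2.67 CPM in GL261 and 43.5, 42.8, 107 and 107 CPM in GL261-GSCs. The 6 libraries fall into 2 groups, so nearness mostly reflects the difference between the groups and is a description only.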

How the data were processed

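The authors deposited unfiltered matrices of raw UMI counts. Cell Ranger 4 made them, per the file headers, and the submitters' processing notes name mm10. Whether cells or nuclei were loaded, and the aligner settings, are not given here. Of the identifiers, 54409 matched GENCODE M21 without version.

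A barcode was called a cell with UMIs of at least 10% of the 99th percentile among the 3000 largest, at least 500 genes and under 10% mitochondrial UMIs. Doublets were not removed. Sums per library were tested with edgeR 4.0.16 (quasi-likelihood, TMM, filterByExpr, Benjamini-Hochberg over all genes, threshold 0.05) in R 4.3.3. The SE is the absolute log2 difference divided by the square root of F. Shares have 95% Clopper-Pearson intervals. Barcodes holding 100 or more but under 1000 UMIs gave the free RNA. Scripts were tested on simulated data. The labels do not say whether replicate numbers pair the libraries, and the main fit did not pair them. The correlations of same-numbered deviations from the group means were -0.00728 and 0.0707. The GL261 deviations mirror each other, so these values cannot decide whether the numbers pair. Alternatives covered DESeq2 1.42.0, its size factors, filters, blocks, cell calling, thinning and each library left out.

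The genes, lists and classes were chosen with earlier results of these data known. Named genes were the 8 members, the 4 called genes of smallest p in each list, the 5 nearest to Kit and to Pdgfra, and Olig2, of which 1 list gene is not reported here. The other list genes named (Grb2, Shc1, Nck2, Crk, Crkl, Fes, Csf1, Il34, Serpine2, Chic2, Kdr, Fip1l1), and the markers named, were chosen after their values were seen.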

Additional observations from a re-analysis of the deposited data

Results flagged for a closer look

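In 24 groups of 4 values, the highest or lowest was set against the others by Dixon's criterion, and 3 stood out. The groups include the levels, shares and odds ratios that chose the genes, so this picks values to look at and is no test. The criterion's usual chance rate of about 1 in 20 does not hold here, since level and share of the same gene are counted apart. Pdgfb had 0.0275 CPM in GL261-GSCs replicate 4 and 0 in the other 3, which is a single UMI. The log2 ratio of Kit between G2/M-high and G2/M-low cells was 0.21 in GL261-GSCs replicate 4 and -0.07 to -0.05 in the others. The odds ratio of finding Kit and Pdgfra in 1 cell was 1.17 in GL261-GSCs replicate 1 and 1.55 to 1.60 in the others.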

How the results depend on the processing

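Of the alternatives for the main results, 82 stayed close, 21 moved and 1 reversed. Close means within 1.5 times for counts of genes and within the SD between libraries for mean log2 odds ratios. The reversed value was the mean log2 odds ratio of Pdgfra and Pdgfa in GL261-GSCs, -0.11 at 2000 UMIs and 0.17 in unthinned cells. Leaving out 1 library gave 1816 to 6192 genes called between the groups (5514 with all), the fewest without a GL261 library, when the lone GL261 library is assumed to vary like the other group. The same ranges were 2 to 18 for proximal signalling, 5 to 9 for negative regulators, 3 to 10 for related receptors and ligands, 4 to 7 for ligand processing and 1 to 7 for the chromosome 5 neighbours. For the G2/M classes they were 2282 to 5300 genes (5286 with all) and for the oligodendrocyte classes 850 to 2810 (2790 with all). Counts thinned to 2000 UMIs gave 3095 and 1482 genes. Without the library block edgeR called 407 G2/M genes and 0 oligodendrocyte-class genes, with 175 at an unadjusted p under 0.05, while DESeq2 with the block called 1932. The replicate number used as a block between the groups, a pairing the labels do not name, gave 6512 genes and 19, 8, 9, 9 and 7 in the 5 lists. Clock then missed the threshold (edgeR adjusted p = 0.0513), and the log2 difference of Lnx1 was 2.90 against 5.33. Where no cause is stated, the cause was not tested.

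Shares of cells with a UMI depend on depth. Unthinned, the mean GL261-GSCs share minus that of GL261 was 46.98 percentage points for Kit and 49.6 for Pdgfra, against 15.3 and 20.9 at 2000 UMIs, in the same direction.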
